A study of Homo sapiens with 34 samples.

Results

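The aminoacyl-tRNA synthetases were followed here as 36 genes, 20 that encode the cytosolic enzymes and 16 that encode the mitochondrial enzymes, out of 28690 gene loci in the expression tables. The members were taken from the family by name, not by any measured value. Each of the 36 genes was found as 1 locus on a main chromosome, and each passed the filter on low values, a mean of at least 0.7 FPKM over all libraries (fragments scaled to transcript length and to library size, so that levels can be compared between genes), which 14678 loci passed. CARS, VARS and VARS2 had a further 12 rows on alternate sequences, all listed at 0.

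The cells were U2OS, a human osteosarcoma line, all carrying a stable Bmal1:luciferase reporter of the circadian clock and, per the study's methods, all synchronized with dexamethasone before sampling. They were kept in 5 mM 6-aminonicotinamide (6AN), which blocks the NADPH-producing steps of the pentose phosphate pathway, or in the solvent DMSO. RNA-seq of rRNA-depleted total RNA gave 1 library for each condition at each of 12 labelled circadian hours, every 4 h from 0 to 44. Another 10 ChIP-seq libraries, 1 for each antibody or input and condition after 24 h, covered BMAL1, CLOCK, H3K4me3, H3K9ac and input DNA. Nothing in the labels says whether the hours came from separate cultures.

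Relative sequencing depth, read from the smallest steps in the FPKM values, ran from 0.59 to 1.31 within the DMSO table and from 0.7 to 1.55 within the 6AN table. The authors normalized the 2 tables separately, so the levels of 6AN and DMSO are set side by side below without a test. Of 9 bone-cell genes, 6 had a mean of at least 1 FPKM in these libraries, whereas COL1A2, IBSP and SP7 were close to 0. The summed level of the 9 was 428 to 581 FPKM in DMSO and 140 to 313 FPKM in 6AN. Most of that sum came from COL1A1 and SPARC, a bone collagen chain and a matrix glycoprotein, which were lower in 6AN at all 12 hours (log2 difference -2.02 and -1.35 in the mean). ALPL was also lower at all 12 (-0.64), SPP1 was higher at all 12 (0.66), and RUNX2 and BGLAP took both signs (-0.0050 and -0.029). The locus that holds BGLAP, counted among the 6, is shared with other genes, and its level cannot be credited to BGLAP alone. Of 8 genes of epithelial, blood and liver cells, only the keratins KRT18 and KRT8 passed 1 FPKM in the mean over all libraries, and the summed level of the list was 288 to 459 FPKM in DMSO and 156 to 234 FPKM in 6AN. The part of these shifts in the synthetase values was not tested. In bulk RNA, fewer cells of a kind and less RNA per cell cannot be told apart.

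Aminoacyl-tRNA synthetases join each amino acid to its own tRNA and so supply the ribosome with charged tRNAs. In human cells most amino acids have separate nuclear genes for the cytosolic and the mitochondrial enzyme, while GARS and KARS serve both compartments. The enzymes fall into class I and class II by the fold of the catalytic domain, and several cytosolic ones sit together in the multisynthetase complex on the scaffold proteins AIMP1, AIMP2 and EEF1E1. Many cytosolic synthetase genes are known targets of ATF4, the transcription factor of the integrated stress response, which binds composite C/EBP-ATF elements. CLOCK and BMAL1, the activators of the circadian clock, bind E-boxes.

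Promoter sequence from RefSeq (GRCh38.p14, 250 bases before to 50 bases after a start site) was matched for 30 of the 36 members, 16 cytosolic and 14 mitochondrial. LARS, VARS, YARS, AARS2 and VARS2 were among those not matched. The letters TGATGNAA, the core of an ATF4 element, were searched on both strands, a search chosen with the expression values known. They stood in the promoters of 7 of 16 cytosolic members and of 1 of 14 mitochondrial members (YARS2), against 3.62% of all 35116 promoters of that length. Some genes have several promoter entries: counted by entry, 7 of 21 cytosolic entries (33.3%) and 1 of 18 mitochondrial entries (5.56%) held the letters. The 7 cytosolic windows of 30 bases are shown because this run of letters is what these promoters have in common. Capitals mark the match, which reads TTGCATCA or TTTCATCA where the element lies on the other strand.
AARS, chr16:70289675-70289704, minus strand: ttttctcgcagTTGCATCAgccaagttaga
CARS, chr11:3057407-3057436, minus strand: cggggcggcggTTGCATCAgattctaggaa
GARS, chr7:30594834-30594863, plus strand: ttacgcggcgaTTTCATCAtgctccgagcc
IARS, chr9:92293692-92293721, minus strand: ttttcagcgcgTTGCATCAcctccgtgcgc
MARS, chr12:57488053-57488082, plus strand: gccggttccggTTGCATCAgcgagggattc
NARS, chr18:57621804-57621833, minus strand: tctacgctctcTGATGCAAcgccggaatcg
TARS, chr5:33440956-33440985, plus strand: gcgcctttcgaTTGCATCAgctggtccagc
In 5 of the 7 (CARS, IARS, MARS, NARS and TARS) the match began within 15 bases of the RefSeq start site, at position -33 in GARS and at position -187 in AARS. A match is a description of letters and not of a bound site.

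The E-box letters CACGTG, which read the same on both strands, were in a promoter of 1 of 16 cytosolic members (IARS, at position -186, clear of the other motif) and of 3 of 14 mitochondrial members (CARS2, EARS2 and MARS2), against 7.26% of all promoters. The MARS2 window is shown because ChIP-seq peaks of BMAL1 and CLOCK, described further on, cover it.
MARS2, chr2:197705347-197705376, plus strand: tgcgcctctcaCACGTGctgtcagaacgcc

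In DMSO, mRNAs of the cytosolic enzymes were the more abundant set. Their mean levels ran from 25.8 FPKM (FARSB, the beta chain of the phenylalanine enzyme) to 146 FPKM (SARS, the serine enzyme), with a median over genes of 54.3 FPKM. The mitochondrial members ran from 3.77 FPKM (MARS2, methionine) to 51.6 FPKM (IARS2, isoleucine), with a median of 10.2 FPKM. In 13 pairs matched by gene name, such as MARS and MARS2, the cytosolic level was the higher in 12. The median ratio was 4.09, and it was up to 22.8 for MARS over MARS2. FARSA, FARSB and EPRS, which share an amino acid with FARS2, EARS2 or PARS2, were not paired. The exception was isoleucine, where IARS stood at 0.932 of IARS2. After SARS, the highest mean levels in DMSO were those of TARS (129 FPKM), KARS (121 FPKM) and GARS (113 FPKM), whose ranges over the hours overlapped. In 6AN the order was SARS (237 FPKM), GARS (165 FPKM), TARS (139 FPKM), KARS (123 FPKM), QARS (119 FPKM), AARS (117 FPKM) and MARS (113 FPKM).

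In 6AN the cytosolic set was on balance higher and the mitochondrial set was not. Over the 20 cytosolic genes the median of the mean differences, 6AN minus DMSO in log2(FPKM + 1), was 0.17, from -0.28 (VARS) to 0.69 (SARS). It was 0.0061 over the 16 mitochondrial genes, from -0.38 (RARS2) to 0.49 (MARS2), and -0.037 over all expressed loci. Of the cytosolic genes, 9 were higher in 6AN at all 12 hours (AARS, CARS, EPRS, GARS, MARS, QARS, SARS, WARS and YARS), against 12.6% of expressed loci. VARS was lower at all 12, against 19.8% of loci, and the remaining 10 took both signs. Of the mitochondrial genes, MARS2 was higher at all 12 hours, RARS2 was lower at all 12 and 14 took both signs. When all 24 libraries were rescaled together by the median ratio, 15.8% of loci were higher and 16.3% lower at every hour, and the cytosolic counts became 10 higher and 0 lower.

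**Figure D1:**
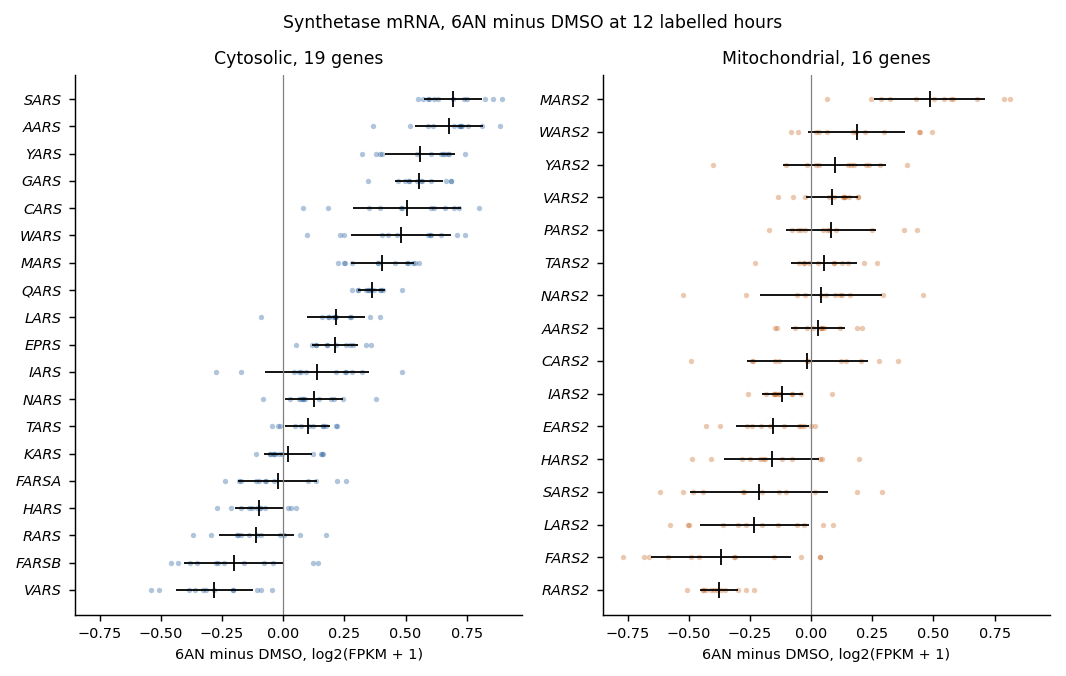
Difference between 6AN and DMSO in log2(FPKM + 1) for 19 of the 20 cytosolic and all 16 mitochondrial genes, with 1 point for each of 12 labelled hours, a tick for the mean and a bar for the SD over hours. All points of 9 cytosolic genes lie right of 0, whereas among the mitochondrial genes this holds for MARS2 only.

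SARS (chr1:109213893-109238182), which charges serine tRNAs and selenocysteine tRNA, showed the widest gap among the cytosolic members. Its level had a lowest value of 130, a median of 141 and a highest value of 179 FPKM in DMSO, and of 195, 238 and 300 FPKM in 6AN. Every 6AN library was therefore above every DMSO library, and the mean difference was 0.69 ± 0.12 (SD, n = 12 hours), a ratio of mean levels of 1.62. AARS (chr16:70252394-70289509), the alanine enzyme, ran from 63.5 through a median of 70.4 to 91.6 FPKM in DMSO and from 105 through 119 to 124 FPKM in 6AN. Its conditions were also fully apart, with a mean difference of 0.68 ± 0.14 (SD, n = 12). QARS (chr3:49095932-49105129), the glutamine enzyme of the complex, was the third member without overlap, at 77.1 to 100.95 FPKM in DMSO and 108 to 125 FPKM in 6AN. Its difference was smaller but the steadiest of the family, 0.36 ± 0.055 (SD, n = 12). Among expressed loci 5.66% had all 12 levels in 6AN above all 12 in DMSO.

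YARS and GARS completed the 4 largest cytosolic differences. YARS, the tyrosine enzyme, had a lowest, median and highest level of 44.8, 53.8 and 74.5 FPKM in DMSO and of 72.0, 83.5 and 93.2 FPKM in 6AN, and the mean difference was 0.56 ± 0.14 (SD, n = 12). GARS (chr7:30594735-30634032), which supplies glycine enzyme to both compartments, had 95.3, 105 and 151 FPKM in DMSO and 141, 167 and 213 FPKM in 6AN, a difference of 0.55 ± 0.099 (SD, n = 12). In both genes 9 of the 12 libraries in 6AN exceeded the highest DMSO library, and the overlap came from the DMSO library of hour 44 alone, the highest of its course in both.

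**Figure D2:**
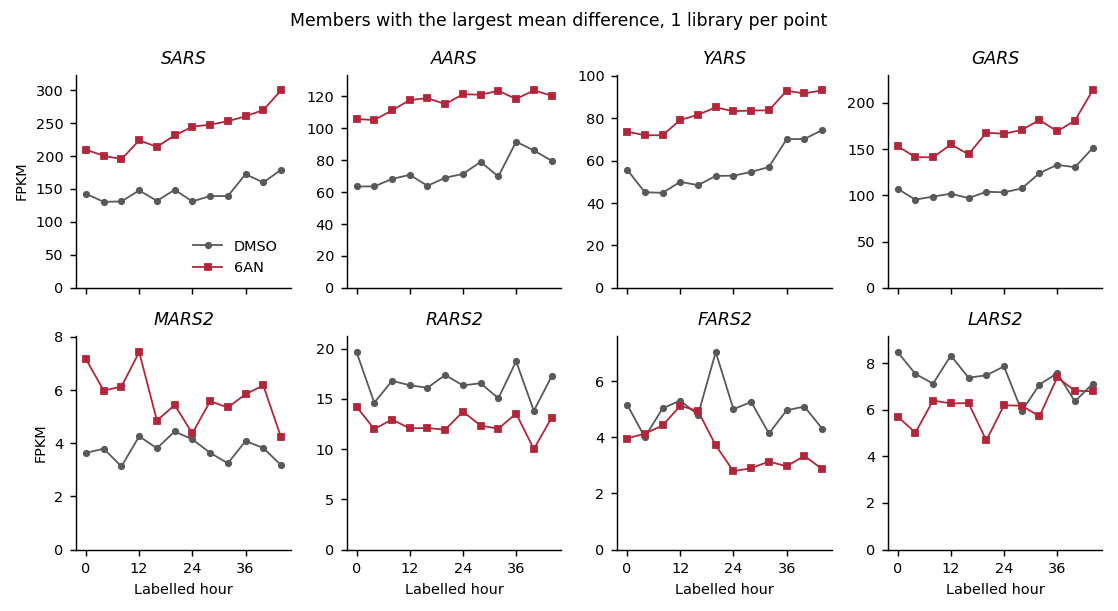
FPKM of the 4 cytosolic and the 4 mitochondrial genes with the largest mean difference, against labelled hour, 1 library per point, DMSO in grey circles and 6AN in red squares, on linear axes from 0. SARS and AARS stay apart throughout, RARS2 is lower in 6AN at every hour, and FARS2 separates from hour 20 on.

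The other members that were higher at every hour were CARS (cysteine), 0.51 ± 0.22, WARS (tryptophan), 0.48 ± 0.20, MARS (methionine), 0.41 ± 0.13, and EPRS (the bifunctional glutamate and proline enzyme), 0.21 ± 0.095 (SD, n = 12 each). The lowest and highest levels of CARS were 32.7 and 55.2 FPKM in DMSO and 49.1 and 70.6 FPKM in 6AN, and those of MARS 72.7 and 114 FPKM in DMSO and 95.4 and 135 FPKM in 6AN, so that both overlapped. LARS (leucine) at 0.21 and NARS (asparagine) at 0.13 were higher at 11 hours, each with its 1 exception at hour 0. IARS (isoleucine) at 0.14 was higher at 10 hours and TARS (threonine) at 0.10 at 9 hours. KARS (lysine), the abundant member with the smallest difference, 0.020 ± 0.099, had 4 hours higher and 8 lower. FARSA and FARSB, the chains of 1 phenylalanine enzyme, differed by -0.023 ± 0.16 and -0.20 ± 0.20, and HARS (histidine) and RARS (arginine) by -0.10 and -0.11.

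VARS (chr6:31777520-31795935), the valine enzyme, was the cytosolic member that stood lower. Its levels were 40.6, 44.9 and 52.9 FPKM (lowest, median, highest) in DMSO and 32.8, 37.8 and 40.2 FPKM in 6AN. The groups did not overlap, by less than 1 FPKM, and 9.93% of loci had all 12 levels in 6AN below all 12 in DMSO. The mean difference was -0.28 ± 0.16 (SD, n = 12), and neither the sign at every hour nor the separation was kept when the 24 libraries were rescaled together.

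By structural class, 5 of the 9 class I cytosolic genes and 3 of the 10 class II genes were higher at all 12 hours, against 12.6% of expressed loci. Their median differences were 0.36 and 0.060, and the classes were not compared by a test. EPRS holds both classes in 1 protein. Among the 8 catalytic members of the multisynthetase complex, 3 were higher at all hours (EPRS, MARS and QARS), with a median of 0.17, the same as that of the whole cytosolic set. Mitochondrial class I and class II genes had medians of -0.015 and 0.028.

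Of the cytosolic members with the TGATGNAA letters in the promoter, 4 of 7 were higher in 6AN at all 12 hours (AARS, CARS, GARS and MARS), and so were 4 of the 9 without them (EPRS, QARS, SARS and WARS). The median differences were 0.41 and 0.020, and 12.6% of expressed loci were higher at all 12 hours. SARS, with the largest difference of all, had no match within its windows.

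MARS2 (chr2:197705304-197708390), which charges the mitochondrial methionine tRNA, was the least abundant member in DMSO and the mitochondrial gene with the largest difference. It had 3.13, 3.80 and 4.44 FPKM (lowest, median, highest) in DMSO and 4.22, 5.71 and 7.43 FPKM in 6AN. In 10 of 12 hours the 6AN library was above every DMSO library, and the mean difference was 0.49 ± 0.23 (SD, n = 12), with its smallest value, 0.063, at hour 24. RARS2 (chr6:87514378-87590017), the mitochondrial arginine enzyme, went the other way at every hour. Its levels were 13.8, 16.5 and 19.7 FPKM in DMSO and 10.01, 12.2 and 14.2 FPKM in 6AN, and the difference was -0.38 ± 0.079 (SD, n = 12). All but 1 of the 6AN libraries were below the lowest DMSO library.

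FARS2 (chr6:5261351-5771583), the mitochondrial phenylalanine enzyme, had 4.01, 5.02 and 7.04 FPKM in DMSO and 2.79, 3.53 and 5.13 FPKM in 6AN, a mean difference of -0.37 ± 0.29 (SD, n = 12). From hour 20 on every 6AN library was below every DMSO library, whereas of the 5 earlier hours only hour 0 was. LARS2 (leucine) had 5.93, 7.42 and 8.47 FPKM in DMSO and 4.68, 6.23 and 7.38 FPKM in 6AN, a difference of -0.23 ± 0.22 (SD, n = 12) that was negative at 10 hours. The remaining 12 mitochondrial members had mean differences from -0.21 (SARS2, serine) to 0.19 (WARS2, tryptophan). IARS2, the most abundant of them, was lower in 6AN at 11 hours, with a mean difference of -0.12 ± 0.085 (SD, n = 12) and levels of 49.2 to 54.0 FPKM in DMSO and 44.5 to 52.6 FPKM in 6AN.

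The other mitochondrial enzymes showed conditions that overlapped in level. EARS2, which charges both glutamate and, before transamidation, glutamine tRNA, had 5.11 to 6.94 FPKM in DMSO and 4.79 to 6.53 FPKM in 6AN, and was lower in 6AN at 10 hours. HARS2 (histidine), with 10.8 to 13.4 and 9.03 to 12.6 FPKM, and SARS2, with 9.10 to 12.4 and 6.40 to 14.2 FPKM, were each lower at 9 hours. WARS2, with 5.14 to 8.77 FPKM in DMSO and 6.17 to 9.22 FPKM in 6AN, was higher at 10 hours, and VARS2 (valine) and YARS2 (tyrosine) were higher at 9 hours, with mean differences of 0.083 ± 0.11 and 0.095 ± 0.21. AARS2 (alanine), NARS2 (asparagine), PARS2 (proline) and TARS2 (threonine) had mean differences of 0.028 to 0.081, each smaller than its SD over the hours, and CARS2 (cysteine) had -0.015 ± 0.25.

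In the pairs matched by gene name, the difference of the cytosolic gene was the larger in 11 of 13. It was larger at all 12 hours for AARS over AARS2, LARS over LARS2, SARS over SARS2 and YARS over YARS2. The serine pair was the widest, with 0.69 for SARS and -0.21 for SARS2. Methionine and valine were the exceptions, with 0.41 for MARS and 0.49 for MARS2, and with -0.28 for VARS and 0.083 for VARS2, where the mitochondrial value was the larger at every hour.

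Trends over the 44 h were then tested within each condition, with limma on log2(FPKM + 1), a slope fitted beside a 24 h cosine, and p-values adjusted over all 14678 loci. In 6AN, 14 of the 20 cytosolic genes rose and none fell, against 10.4% of all loci rising and 12.5% falling. In DMSO, 6 rose (AARS, CARS, EPRS, GARS, NARS and YARS) and VARS fell, against 2.47% rising and 2.79% falling. No mitochondrial gene rose in either condition or fell in DMSO at this threshold, while 6 of the 16 in DMSO and 4 in 6AN had an unadjusted p under 0.05. FARS2, SARS2 and WARS2 fell in 6AN. Trend calls in 6AN, in either direction, were more frequent among abundant loci. They covered 30.5% of the 10090 loci with a mean of at least 5 FPKM, 1419 of them rising, against 22.9% of all loci. All cytosolic members are above that level, and the mitochondrial members are mostly less abundant than they are. The libraries are 1 per hour, so the p-values measure the spread of single libraries around the fitted line.

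**Figure D3:**
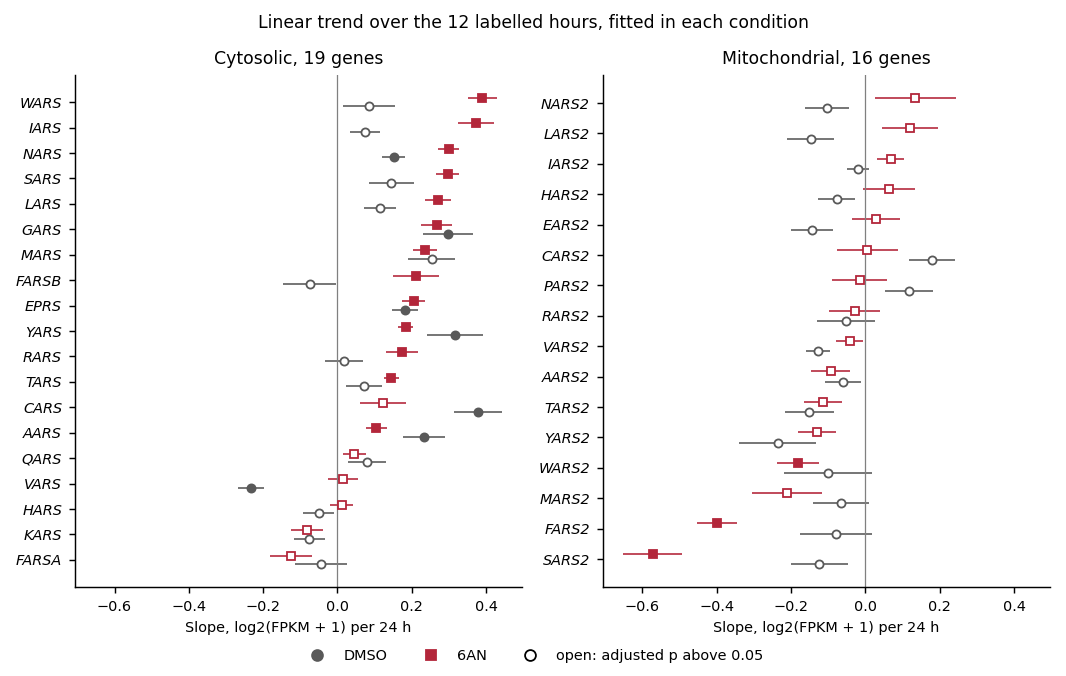
Slope of log2(FPKM + 1) per 24 h for 19 of the 20 cytosolic and all 16 mitochondrial genes, with its standard error as a bar, DMSO in grey circles and 6AN in red squares, filled where the adjusted p was at most 0.05. The filled red squares of the rising cytosolic genes lie right of 0 and those of 3 mitochondrial genes lie left of it.

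The steepest rise in 6AN was that of WARS. Its level went from a lowest value of 31.9 FPKM at hour 4 through a median of 40.1 to a highest value of 53.5 FPKM at hour 44, a slope of 0.39 per 24 h (SE 0.039, adjusted p = 0.000328), while in DMSO, at 24.6 to 34.9 FPKM, the slope was 0.084 (adjusted p = 0.572). IARS ran from 41.8 to 67.3 FPKM in 6AN with a slope of 0.37 (SE 0.049, adjusted p = 0.00104). It started below DMSO and was above it at every hour from 8 on. NARS rose in both conditions, by 0.30 per 24 h in 6AN (SE 0.028, adjusted p = 0.000246) and 0.15 in DMSO (SE 0.031, adjusted p = 0.0241). SARS rose by 0.30 per 24 h in 6AN (SE 0.030, adjusted p = 0.000349), and its DMSO slope of 0.15 did not pass (adjusted p = 0.230).

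LARS rose from 29.3 to 41.6 FPKM in 6AN, with a slope of 0.27 and an adjusted p of 0.000861. GARS had slopes of 0.27 in 6AN (adjusted p = 0.00229) and 0.30 in DMSO (adjusted p = 0.0375). MARS had 0.24 in 6AN (adjusted p = 0.00125) and 0.25 in DMSO, just past the threshold on the other side (adjusted p = 0.0541). EPRS rose by 0.20 in 6AN and 0.18 in DMSO, with adjusted p-values of 0.00211 and 0.0176. The smaller rises in 6AN were those of FARSB (0.21), YARS (0.18), RARS (0.17), TARS (0.15) and AARS (0.10), with adjusted p-values between 0.000607 and 0.0372. Of the 14 rising genes, 12 had their highest 6AN level at hour 44, the exceptions being IARS (hour 28) and AARS (hour 40).

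CARS, YARS and AARS, like GARS and MARS above, had the larger slope in DMSO. The cysteine enzyme CARS went from 32.7 FPKM at hour 4 to 55.2 FPKM at hour 44 in DMSO, a slope of 0.38 per 24 h (SE 0.065, adjusted p = 0.0120), while in 6AN it was already at 54.2 FPKM at hour 0 and its slope of 0.12 did not pass (adjusted p = 0.193). YARS rose by 0.32 (SE 0.075, adjusted p = 0.0445) and AARS by 0.23 (SE 0.056, adjusted p = 0.0452) in DMSO. VARS fell in DMSO by 0.23 per 24 h (SE 0.034, adjusted p = 0.00623), from 52.9 FPKM at hour 0 to 40.6 FPKM at hour 32, and its 6AN slope was 0.015. The DMSO calls were fragile: leaving out 1 hour left between 1 and 6 of the 6 rising genes, 1 (CARS) without hour 12, whereas VARS passed each time. Slopes were not compared between conditions by a test.

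Among the mitochondrial genes, SARS2 had the steepest fall, from 14.2 FPKM at hour 0 to 6.40 FPKM at hour 28 in 6AN, a slope of -0.57 per 24 h (SE 0.080, adjusted p = 0.00137), against -0.12 in DMSO (adjusted p = 0.430). FARS2 had a slope of -0.40 in 6AN (SE 0.054, adjusted p = 0.00118) and -0.080 in DMSO (adjusted p = 0.730). WARS2, at 6.17 to 9.22 FPKM in 6AN, had -0.18 (SE 0.056, adjusted p = 0.0448), a call that was lost without any 1 of 10 of the 12 hours. SARS2 and FARS2 kept their calls when any 1 hour was left out.

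The gap between conditions differed between the early and the late hours for some members. The cytosolic median difference was 0.11 over hours 0 to 20 and 0.24 over hours 24 to 44, and the mitochondrial median was 0.017 and -0.030. Among single genes, WARS went from 0.31 to 0.65, IARS from -0.0081 to 0.28, FARSB from -0.34 to -0.063 and SARS from 0.61 to 0.78. VARS narrowed from -0.41 to -0.16 and CARS from 0.65 to 0.36, while SARS2 went from 0.0095 to -0.44 and FARS2 from -0.20 to -0.53. These shifts were not tested.

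**Figure D4:**
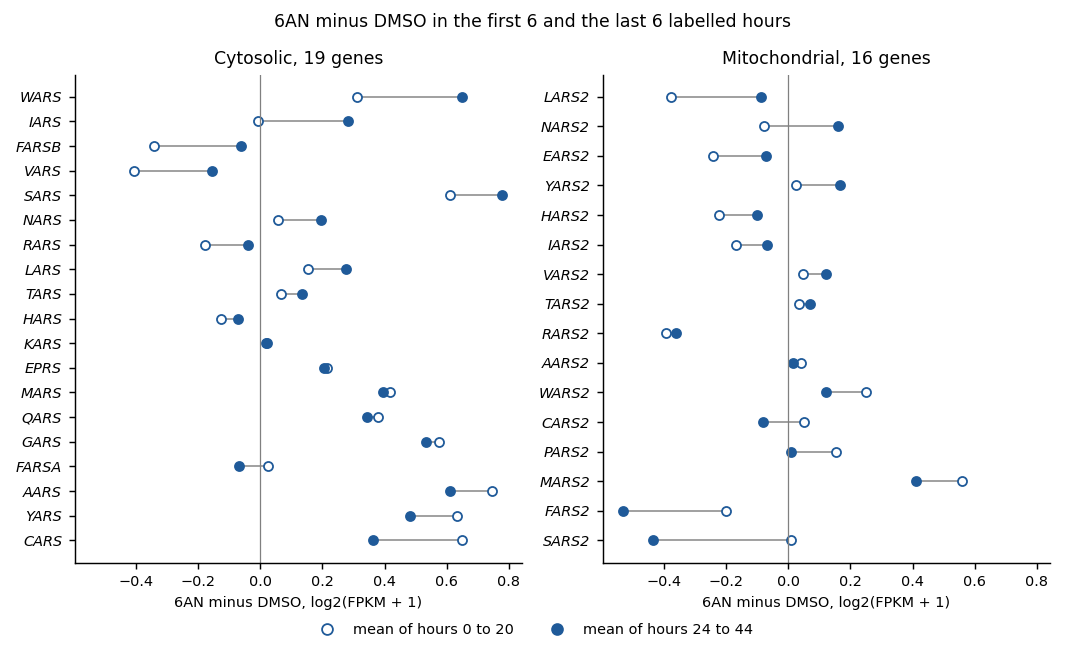
Mean difference, 6AN minus DMSO in log2(FPKM + 1), over labelled hours 0 to 20 (open circles) and 24 to 44 (filled circles) for 19 of the 20 cytosolic and all 16 mitochondrial genes, ordered by the shift. WARS moved from 0.31 to 0.65 and SARS2 from 0.0095 to -0.44, whereas KARS stayed near 0.

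**Figure D5:**
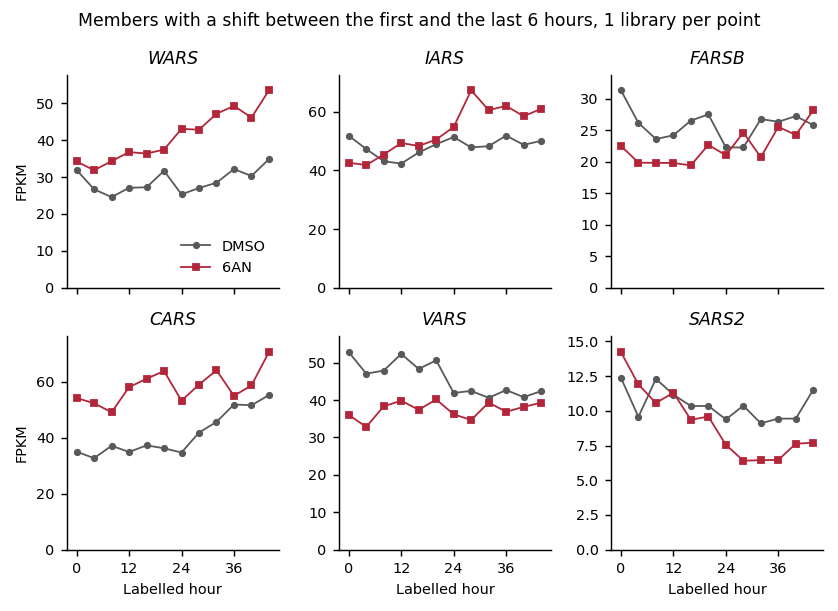
FPKM against labelled hour for 6 members picked, with their values seen, for a shift between early and late hours, 1 library per point, DMSO in grey circles and 6AN in red squares, on linear axes from 0. WARS and IARS part as 6AN climbs, CARS closes as DMSO climbs, VARS closes as DMSO drops, and SARS2 in 6AN drops below DMSO.

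No synthetase passed the test of a 24 h cosine in either condition. In DMSO the smallest adjusted p of the family was 0.737 (VARS), and 1 of 36 had an unadjusted p under 0.05. In 6AN it was 0.387 (FARS2), and 3 of 36 had an unadjusted p under 0.05. Over all loci the limma test called 1 in DMSO (0.00681%) and 0 in 6AN (0%), with 970 and 1138 loci at an unadjusted p under 0.05, and least squares without moderation likewise called 1 and 0. With 12 single libraries, small cosines were not detectable, and the near absence of calls over all loci limits the test further. The paper, with the RAIN algorithm, detected rhythmic transcripts in both conditions, among them clock genes such as NR1D1 and PER3. Its threshold was on a p-value for which its main text names no adjustment over loci, so its calls and those here are not comparable in number. It also reports longer periods under 6AN, whereas the cosine was fixed at 24 h. The lack of a call therefore does not show that a synthetase had no rhythm.

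The other 13 genes of tRNA charging did not share a direction. Their median difference was 0.023. At all 12 hours 1 gene was higher and 2 were lower, against 12.6% and 19.8% of expressed loci. The other 10 took both signs. XPOT, the exportin that carries tRNA out of the nucleus, had 32.1 to 41.8 FPKM in DMSO and 42.4 to 68.7 FPKM in 6AN, without overlap, a difference of 0.60 ± 0.19 (SD, n = 12). It rose in 6AN by 0.37 per 24 h (SE 0.044, adjusted p = 0.000674). Of the scaffold genes of the complex, AIMP1 rose in 6AN by 0.34 per 24 h (SE 0.048, adjusted p = 0.00131) with a mean difference of 0.14 ± 0.31, AIMP2 differed by 0.029 ± 0.18, and the locus that holds EEF1E1 was lower at all 12 hours, by 0.35 in the mean (6AN minus DMSO -0.35). That locus is shared with neighbouring genes, TXNDC5 and BLOC1S5 among them, and cannot be credited to EEF1E1 alone. DTD1, which removes D-amino acids from tRNA, was also lower at all 12 hours (-0.22 ± 0.097), while DTD2 and the locus that holds AARSD1, other editing factors, were at -0.091 and -0.094. The AARSD1 locus is shared with PTGES3L. The mitochondrial transamidation and formylation genes QRSL1, GATB, GATC and MTFMT were between -0.092 and 0.26, and SEPSECS and PSTK, which make selenocysteyl-tRNA, were at 0.023 and 0.16. GATC and SEPSECS also rose in 6AN, by 0.074 and 0.24 per 24 h (adjusted p = 0.0465 and 0.00918). Of all loci, 10.4% rose in 6AN. None of the 13 passed in DMSO, where 2 had an unadjusted p under 0.05 in limma.

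A list of 8 genes of the integrated stress response, drawn up with earlier results of these data known and so not independent evidence of their direction, was higher in 6AN at all 12 hours in every member. Of expressed loci, 12.6% were higher at all 12 hours. The median difference of the list was 1.15, from 0.58 (SESN2) to 2.003 (TRIB3). ATF4 had 419 to 674 FPKM in DMSO and 858 to 1118 FPKM in 6AN, a difference of 0.93 ± 0.14 (SD, n = 12), and ASNS, the asparagine synthetase that is a classical ATF4 target, 24.3 to 76.3 and 65.7 to 121 FPKM, a difference of 1.20 ± 0.38. In DMSO, ATF4, ASNS, CHAC1 and PSAT1 rose over the hours, as did AARS, CARS, EPRS, GARS, NARS and YARS. In 6AN, 6 of the 8 rose, against 10.4% of all loci. TRIB3 rose most steeply, at 0.95 per 24 h (SE 0.064, adjusted p = 5.99e-05).

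Of 4001 merged BMAL1 and CLOCK peaks, 9 lay within 1 kb of a synthetase locus, at 8 of the 36 members. Of all 14678 expressed loci, 26.6% had such a peak within 1 kb. TARS had a BMAL1 peak in both conditions (chr5:33440561-33440837). KARS (chr16:75647588-75647788), MARS at its start (chr12:57487830-57488030) and SARS2 (chr19:38930365-38930565) had one in 6AN alone, and AARS2 (chr6:44313371-44313571) and VARS2 (chr6:30914196-30914396) in DMSO alone. A CLOCK peak lay near 3 members, each time in 6AN and not in DMSO, and near 8.35% of all expressed loci. MARS is counted among them through a span that it shares with DDIT3. With 1 library for each antibody and condition, presence in 1 condition was not tested.

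In the deposited list of 439 sites shared by both factors in 6AN, those within 1 kb of a synthetase locus were examined. Of these, only the site at MARS2 had a synthetase as its listed gene. It covers chr2:197704818-197705818, is centred 14 bases from the start site and contains the CACGTG window printed above. The deposited signal there was 18.1 in DMSO and 26.6 in 6AN for BMAL1, from 13.5 and 21 tags, and 7.35 and 30.8 for CLOCK, from 3 and 14 tags. Input gave 7.36 and 7.77, so that CLOCK in DMSO was at 0.999 of input and CLOCK in 6AN at 3.96 times input. H3K4me3, the mark of active promoters, was 223 and 213, and H3K9ac was 53.2 and 47.9, both higher than input in both conditions. These tag numbers are small, and the differences carry no test.

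The other CLOCK peaks near synthetases were assigned to neighbouring genes. One at the 3′ end of the MARS locus (chr12:57520225-57521225) was given by the authors to DDIT3, which encodes the stress factor CHOP, with BMAL1 signals of 34.8 and 51.9 and CLOCK signals of 23.3 and 58.2 in DMSO and 6AN. Input was also higher in 6AN there, 10.07 and 16.6, from 33.5 and 16 tags. Over input BMAL1 was at 3.46 and 3.13 and CLOCK at 2.31 and 3.51, so that the direction of BMAL1 turned. Another, within the YARS locus (chr1:32816859-32817859), was given to S100PBP but also contains the RefSeq start site of YARS (chr1, position 32817358), which runs in the opposite direction, with BMAL1 at 34.2 and 29.1 and CLOCK at 26.97 and 49.4. Input there was 9.32 and 14.5, from 31 and 14 tags, and over input BMAL1 was at 3.67 and 2.008 and CLOCK at 2.89 and 3.41. The tag numbers at both sites are small, and no direction there was tested.

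Several members share their locus with another gene, and since no source used here states whether counting kept the strand, reads of such partners cannot be told apart with certainty. MARS overlaps DDIT3, whose difference was 1.81 (22.7 FPKM in DMSO and 83.2 in 6AN in the mean). HARS and HARS2 overlap each other. YARS overlaps S100PBP, which differed by 0.00042, and SARS2 overlaps MRPS12, which differed by -0.20. LARS2 and WARS2 overlap noncoding transcripts. At WARS2, with means of 6.75 FPKM in DMSO and 7.76 in 6AN, these were LOC101929147 (11.9 and 15.1 FPKM) and WARS2-IT1 (6.35 and 5.38 FPKM). Their differences were 0.32 and -0.22. Without MARS, YARS, SARS2, HARS and HARS2, 7 cytosolic genes were higher at all 12 hours in place of 9, and 1 mitochondrial gene was higher and 1 lower as before.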

How the data were processed

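RNA-seq levels were taken from the 2 deposited FPKM tables (DMSO and 6AN), which the authors made with TopHat, Bowtie and Cufflinks on hg38, per the labels, each normalized over its own 12 libraries. ChIP-seq values were the deposited HOMER peak lists and the signal at shared sites, a tag coverage normalized by the authors to library size. No version is given in the sources used here. Absolute depth of the RNA-seq libraries is unknown, so no counting interval is given. The study's methods mention triplicate extracts, without saying if they were pooled.

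Levels were set on log2(FPKM + 1), a scale that understates differences of low genes, for the 14678 loci with a mean of at least 0.7 FPKM. Because the tables were normalized separately, 6AN minus DMSO is given by hour with its SD over 12 hours and without a test. Within each table limma 3.58.1 (R 4.3.3, trended moderation) fitted a slope with a 24 h cosine, with Benjamini-Hochberg adjustment over all loci and a threshold of 0.05. The fit was also run on simulated data with independent errors. That run does not show how the fit behaves where neighbouring hours are correlated. Named in full were the 4 cytosolic and 4 mitochondrial members with the largest mean difference, the highest and lowest members, those that passed a test, and those with a ChIP-seq site within 1 kb. QARS, VARS and the members in the plot of shifts were described as well. The values of 1 cytosolic member enter the counts and medians and are not reported here. The members, gene lists, promoter letters and rules were chosen with earlier results of these data known. Tables were read with pandas 2.3.3 and figures drawn with matplotlib 3.10.9. Alternatives were another pseudocount (0.1), other filters, rescaling, each hour left out, early or late hours alone, terms tested alone and least squares, and for ChIP-seq a window of 10 kb and the ratio to input.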

Additional observations from a re-analysis of the deposited data

How the results depend on the processing

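The comparison of conditions was paired by labelled hour but not tested, because the tables were normalized separately. Tests were kept within a table. The 12 members with 1 sign at every hour kept the sign of their mean when all 24 libraries were rescaled together. Another pseudocount or fewer hours could not have changed that sign, because every hour had it. No trend that passed turned its direction. Rescaling all 24 libraries together moved the mitochondrial median to 0.058 and left 0 cytosolic members lower at every hour and 0 with every 6AN level below every DMSO level. In the first 6 hours alone, the median of the other tRNA charging genes was -0.10, 3 cytosolic members were lower at every hour, 8 had all levels above and 2 all below DMSO, and among mitochondrial members 2 were higher, 5 lower, 1 all above and 4 all below, while of all loci 18.1% were higher, 26.7% lower, 10.7% all above and 16.4% all below. In the last 6 hours alone, 9 cytosolic members had all levels above, and 3 mitochondrial members were lower, 1 all above and 3 all below, while of all loci 19.9% were higher, 28.1% lower, 12.3% all above and 20% all below. Requiring a mean of at least 5 FPKM removed MARS2, which left 0 mitochondrial members higher at every hour. Of the DMSO trends, 3 cytosolic genes rose with all loci above 0 tested and with least squares per locus, and 1 mitochondrial gene (VARS2) fell with the filter of 5 FPKM and with the slope tested alone. In that order, these settings called 2.74%, 4.06%, 7.7% and 5.91% of tested loci in either direction. With 1 hour left out, the cytosolic members all above DMSO numbered 3 to 5 (5 without hour 44), mitochondrial members lower 1 to 2 (2 without hour 28) and all below 0 to 1 (1 without hour 0 or 40), cytosolic genes rising in DMSO 1 to 6 (3 or fewer without hours 4, 8, 12, 16, 20, 32, 36, 40 or 44) and cytosolic genes falling in 6AN 0 to 1 (FARSA without hour 16). In 6AN, 12 to 14 cytosolic genes rose and 2 to 4 mitochondrial genes fell: FARSB and WARS2 lost their calls most often, AARS without hours 0, 28 or 32, RARS without hour 44, and MARS2 fell without hour 16. With 1 hour left out, 5.82% to 6.26% of all loci were all above DMSO, 20.1% to 21.2% lower and 10.2% to 11.8% all below. Trends in either direction were then called at 3.1% to 4.67% of loci in DMSO and at 14.7% to 22.5% in 6AN. The cause of these changes was not tested. The ChIP-seq count was 9 members at 10 kb, the added one being CARS2, against 31.4% of all expressed loci. The ratio to input left every direction at the MARS2 site as it was. At the DDIT3 site it turned 6AN over DMSO from 1.49 to 0.905 for BMAL1, from 1.14 to 0.694 for H3K9ac and from 1.31 to 0.796 for H3K4me3, and took CLOCK from 2.50 to 1.52. At the YARS start it turned H3K9ac from 1.21 to 0.775 and took BMAL1 from 0.853 to 0.548, CLOCK from 1.83 to 1.18 and H3K4me3 from 0.975 to 0.626. At the DDIT3 and YARS sites these ratios rest on 16 and 14 tags of 6AN input, and H3K9ac in DMSO on 16 and 21.5 tags. The turns were not tested.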
